A study of Saccharomyces cerevisiae with 10 samples.

Results

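Establishment of a bud site in S. cerevisiae is organised by Cdc42, and the transcripts of 10 genes of this module were examined here: CDC42 itself, CDC24, BEM1, BEM2, GIC1, GIC2, CLA4, STE20, RGA1 and SPA2. They were taken by gene name from a table of 7252 genes, and all 10 passed the filter on low counts. Cells grown in YPD had been moved to nitrogen-limited medium with 0.8 mM proline, and were sorted 1 h post-shift. The strain was a prototrophic, MATa derivative of BY4741 that carried sfGFP under the promoter of RPL28, a ribosomal protein gene, and every library shared this strain, reporter and shift. The cells were sorted by fluorescence and scatter into a low and a high subpopulation, with 5 libraries of each and with budding cells gated out according to the methods. The groups are therefore defined by 1 promoter reporter and by scatter, in 1 strain. The transcript of the reporter itself overlapped between them, with 121 to 291 CPM of sfGFP in the 5 low libraries and 69.8 to 340 CPM in high.

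Cdc42 is a small GTPase that cycles between an inactive GDP-bound and an active GTP-bound form. Cdc24 loads it with GTP, Bem1 holds Cdc24 and an effector kinase together at the growing patch, and GTPase-activating proteins such as Rga1 and Bem2 switch it off. The active form binds effectors with a CRIB motif, among them Gic1, Gic2 and the p21-activated kinases Cla4 and Ste20, which act on actin and septins. Spa2 is a scaffold of the polarisome, which gathers the formin Bni1 at the bud tip. In budding yeast this patch forms late in G1, under the control of the G1 cyclins.

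The low libraries used in the paper, L1_2609, L2_2709 and L_2909, held 18977794 to 23644299 counts, and the 5 high libraries, H1_2609, H2_2609, H1_2709, H2_2709 and H_2909, held 22167864 to 27752702. The other low libraries, L2_2609 with 21503922 counts and L1_2709 with 15879779, were left out in the paper after a principal component analysis, and comparisons are given here over 8 libraries and, where the call or direction of a named gene differs, over 10. Few genes had between 1 and 9 counts in the 5 low libraries (28 to 47) compared with high (275 to 345), and 983 to 1552 genes had 0 counts in low, against 383 to 511 in high. The bearing of this on the results below was not tested. Transcripts of the MATa-specific receptor gene STE2 reached 349 to 509 CPM in low and 170 to 430 in high. The alpha-factor gene MF(ALPHA)1 stayed at 0 to 4.88 CPM in low and 0.613 to 1.42 in high. Of the other alpha-specific genes examined, SAG1 was not near 0, with 41.8 to 90.6 CPM in low and 61.2 to 107 in high. STE3 reached at most 8.99 CPM in any library and MF(ALPHA)2 at most 13.3. Another MATa gene, AGA2, had less than STE2, with 2.62 to 44.5 CPM in low and 13.4 to 52.9 in high. The MATa genes were not level between the groups. Over 8 libraries STE2, MFA1, MFA2 and STE6 had log2 fold changes of low over high of 0.85, 1.30, 1.33 and 0.73. BAR1 and AGA2 were at -0.04 and -0.06. Of these 6 genes 0 were called with edgeR, and DESeq2 called STE2 and MFA2 higher in low. CPM are counts scaled to library size with TMM factors, and since the libraries are bulk samples, fewer cells with a transcript and less of it per cell cannot be told apart.

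Promoter windows are shown for the 4 genes on which the comparison turns: the paralogues GIC2 and GIC1, and the kinase genes CLA4 and SKM1. Each runs from 250 bases before to 50 bases from the start codon on, in genome build R64 (RefSeq), on the coding strand. The GIC2 window is at chrIV:1080150-1080449 and that of GIC1 at chrVIII:222429-222728, both on the minus strand. The CLA4 window is at chrXIV:68665-68964 and that of SKM1 at chrXV:104076-104375, both on the plus strand. Capitals mark a match to a searched motif.
GIC2: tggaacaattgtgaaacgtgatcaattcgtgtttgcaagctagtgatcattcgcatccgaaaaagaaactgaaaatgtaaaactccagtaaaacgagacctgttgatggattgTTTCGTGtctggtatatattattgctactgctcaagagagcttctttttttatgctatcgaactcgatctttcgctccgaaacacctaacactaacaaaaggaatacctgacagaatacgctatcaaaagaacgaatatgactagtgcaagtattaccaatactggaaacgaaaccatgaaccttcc
GIC1: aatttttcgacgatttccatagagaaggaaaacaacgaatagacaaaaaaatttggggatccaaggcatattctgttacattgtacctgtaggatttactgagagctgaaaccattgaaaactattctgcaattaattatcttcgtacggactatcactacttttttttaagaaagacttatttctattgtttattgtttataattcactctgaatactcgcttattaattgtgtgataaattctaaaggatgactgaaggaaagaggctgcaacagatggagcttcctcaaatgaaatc
CLA4: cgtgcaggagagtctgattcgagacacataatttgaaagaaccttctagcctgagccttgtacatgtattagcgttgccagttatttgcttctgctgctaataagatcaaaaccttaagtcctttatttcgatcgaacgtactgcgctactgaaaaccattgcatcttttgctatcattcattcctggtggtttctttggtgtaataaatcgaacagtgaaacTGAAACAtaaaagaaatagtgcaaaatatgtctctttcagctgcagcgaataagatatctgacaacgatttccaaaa
SKM1: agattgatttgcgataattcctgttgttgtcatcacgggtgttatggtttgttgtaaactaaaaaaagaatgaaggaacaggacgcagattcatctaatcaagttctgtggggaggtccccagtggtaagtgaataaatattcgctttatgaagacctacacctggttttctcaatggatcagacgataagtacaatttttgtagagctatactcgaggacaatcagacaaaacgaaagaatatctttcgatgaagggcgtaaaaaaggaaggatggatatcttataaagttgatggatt

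The motifs searched on both strands were CGCGAAA and CACGAAA of SBF, ACGCGT of MBF and TGAAACA of Ste12. SBF and MBF drive transcription in late G1, and Ste12 acts in the pheromone response. GIC2 held CACGAAA on the other strand (printed as TTTCGTG), 137 to 131 bases before the start codon, and CLA4 held TGAAACA 27 to 21 bases before it. Each of these was the only match in its window. In GIC1 and SKM1 none of these letters was found. Among the other members, the SPA2 window alone held a match, ACGCGT at 239 to 234 bases before the start codon. Of all 6001 windows of this length, 7.7% held either SBF form, 3.1% the MBF form and 7.5% the Ste12 form. With 1 of the 10 members for each, the matches were few, and they describe letters rather than bound sites.

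Among the 10 members, GIC2 and CLA4 were lower in low and the other 8 did not pass the test. In the 8 libraries 2 of 10 members were called lower (quasi-likelihood test of edgeR, p adjusted by Benjamini-Hochberg over 6492 genes and below 0.05), where 4.33% of all genes tested were called lower, and 0 were called higher, where 0.832% of all genes were. At an unadjusted p under 0.05, 3 members were lower (GIC1 the third) and 0 higher with edgeR, and DESeq2 and limma-voom also called 0 higher. The members above 0 were CDC24 and BEM1. Below 0 were 8 of 10 members, compared with 52.9% of all genes, and the median log2 fold change of the members was -0.17, against -0.02 over all genes. Of all genes 335 were called in the 8 libraries and 97 with paired replicates, a replicate block, where GIC2 and CLA4 were again the 2 members called. Over 10 libraries 1 member was called lower (2.84% of 6374 genes) and 0 higher (0.706%), and GIC2 was that member. In 2 of 10 members all 3 low libraries lay below all 5 high ones, a separation found in 10.6% of all genes, and in 1 of 10 all 5 low libraries did, found in 5.6%.

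**Figure D1:**
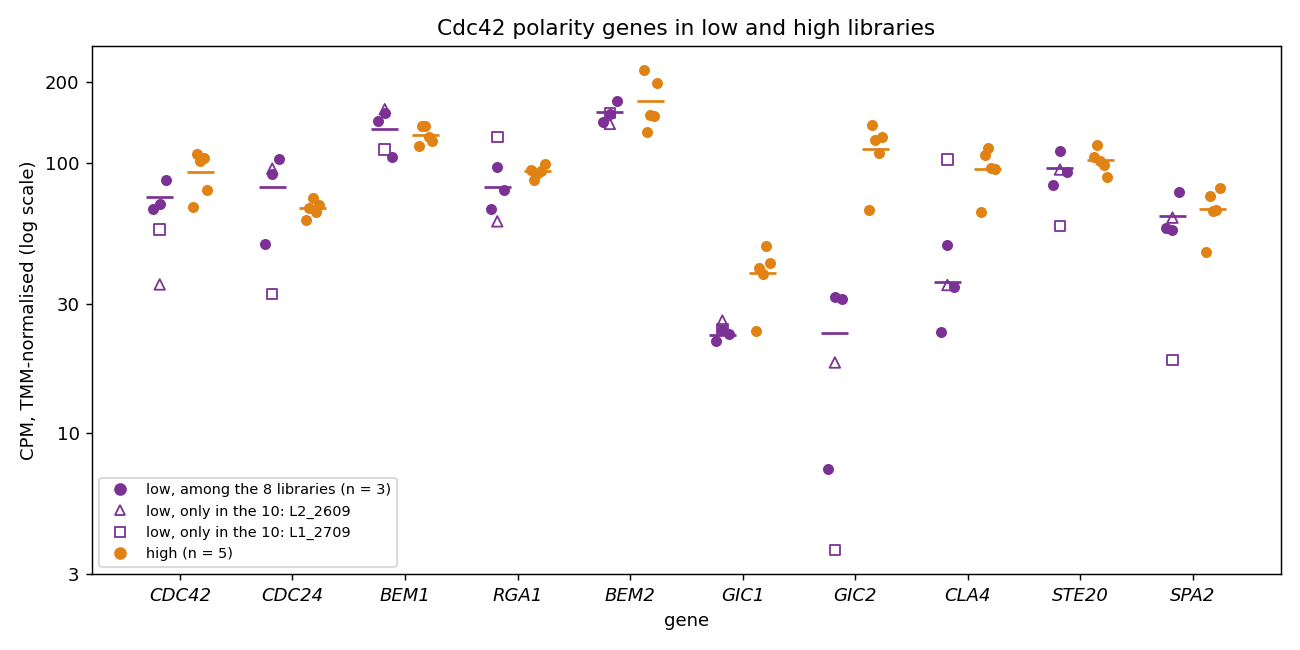
CPM of the 10 members in each library on a log scale, low left of high for each gene, with a bar at the mean of the 3 low and the 5 high libraries. Filled points are the 8 libraries used in the paper and open symbols the low libraries L2_2609 and L1_2709. GIC2 separates the groups in all 10 libraries (3.67 to 31.9 CPM in low, 66.9 to 138 in high), while CLA4 separates them except for L1_2709.

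GIC2, a CRIB effector of Cdc42 that acts at bud emergence, differed most among the members. Its gene, YDR309C, lies on chromosome IV at 1079048 to 1080199. In the low libraries L1_2609, L2_2709 and L_2909 it had 7.34, 31.9 and 31.2 CPM, and in L2_2609 and L1_2709 it had 18.2 and 3.67 CPM. In the high libraries, in the order given above, it had 66.9, 138, 122, 109 and 125 CPM. Every low library was below every high one, and within low the values were more scattered (59.5% coefficient of variation over 3 libraries, 24.4% in high). On average GIC2 had 23.5 ± 13.98 CPM in low (SD, n = 3) and 112 ± 27.4 in high (SD, n = 5), 4.79-fold lower in low by the fit. The log2 fold change was -2.26 (SE 0.46, 95% interval -3.29 to -1.23) with an adjusted p of 0.024 (edgeR), and -2.60 with an adjusted p of 0.015 over 10 libraries. The raw counts in low were 168, 670, 605, 410 and 57, and that 57 in L1_2709 lies under the 5th percentile of its counts above 0 (105), so the lowest value is the least precise.

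Libraries that share a name ending gave the same order for GIC2. On the log2 scale L1_2609 differed by -3.80 from H1_2609 and H2_2609, L2_2709 by -1.85 from H1_2709 and H2_2709, and L_2909 by -2.003 from H_2909. The GIC2 call was lost when any of 3 high libraries was left out. Without the high library H2_2609 the adjusted p was 0.0502 (edgeR), without H1_2709 it was 0.065 and without H2_2709 0.060, whereas the log2 fold change stayed between -2.17 and -2.27. With these libraries left out, the calls over all genes fell to 211, 113 and 119, against 335 in the 8 libraries.

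GIC1 (YHR061C, chromosome VIII, 221534 to 222478), the paralogue of GIC2 with a shared role in recruiting septins to the bud site, was close to uniform within low. Its 5 low values lay between 21.9 and 26.01 CPM (6.32% coefficient of variation). In high it had 23.7 CPM in H1_2609 and 38.7 to 49.0 CPM in the other 4 libraries. The groups overlapped through H1_2609 only. The log2 fold change of -0.76 (SE 0.23, 95% interval -1.28 to -0.23) missed the threshold over 8 libraries (adjusted p 0.11, edgeR). It passed without H1_2609, at -0.89 with an adjusted p of 0.030 (edgeR), and with DESeq2, at -0.75 with an adjusted p of 0.047.

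Within each library the pair could be set side by side on the FPKM scale, which corrects for gene length. The GIC2 to GIC1 ratio of FPKM was 0.276, 1.09 and 1.10 in L1_2609, L2_2709 and L_2909 and 0.574 and 0.1247 in L2_2609 and L1_2709, against 2.31, 2.79, 2.58, 1.82 and 2.42 in the high libraries. GIC2 thus had the higher FPKM of the pair in every high library, and in low it had a clearly lower one in L1_2609, L2_2609 and L1_2709 and a nearly equal one in L2_2709 and L_2909. H1_2609, the high library with the lowest GIC1, was also the one with the lowest GIC2, and its ratio of 2.31 was inside the range of the other high libraries.

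CLA4 encodes a p21-activated kinase that acts on septin assembly and on the switch from apical growth. The gene, YNL298W, is on chromosome XIV at 68915 to 71443. It had 23.7, 49.6 and 34.8 CPM in L1_2609, L2_2709 and L_2909, 35.2 and 103 CPM in L2_2609 and L1_2709, and 65.5, 107, 113, 95.9 and 94.7 CPM in the high libraries. The first 4 of these low values were below all high ones, and L1_2709 was inside the high range. In the 8 libraries CLA4 was 2.65-fold lower in low, at a log2 fold change of -1.40 (SE 0.26, 95% interval -1.99 to -0.81) and an adjusted p of 0.018 (edgeR). Over 10 libraries it was -0.95 with an adjusted p of 0.19. With L1_2709 alone left out of the 10 it was -1.41 with an adjusted p of 0.0061, and with L2_2609 alone left out -0.85 with an adjusted p of 0.31. The call was also lost in the 8 libraries without H1_2709 (adjusted p 0.055) and without H2_2709 (adjusted p 0.053). Between libraries that share a name ending the log2 differences were -1.86 for L1_2609, -1.07 for L2_2709 and -1.45 for L_2909.

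STE20 (YHL007C, chromosome VIII, 95118 to 97937), the p21-activated kinase of the pheromone and filamentous pathways that overlaps with Cla4 in bud emergence, showed no such separation. Its values were 82.5, 111 and 92.7 CPM in L1_2609, L2_2709 and L_2909, 94.4 and 58.3 CPM in L2_2609 and L1_2709, and 105, 116, 102, 98.4 and 88.8 CPM in high. The groups overlapped, and the log2 fold change was -0.10 (95% interval -0.41 to 0.22, adjusted p 0.80, edgeR). STE20 overlaps YHL006W-A on the other strand by 206 bases, and without a stated strand setting the reads there cannot be assigned, but this neighbour reached at most 10.6 CPM in any library.

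SKM1, the third p21-activated kinase gene and not one of the 10, had 32.1, 66.7 and 39.7 CPM in L1_2609, L2_2709 and L_2909 and 31.4 and 63.7 CPM in L2_2609 and L1_2709, against 152, 185, 230, 222 and 174 CPM in the high libraries. No low library reached the high range. SKM1 was 4.17-fold lower in low. Its log2 fold change was -2.06 (SE 0.26), with an adjusted p of 0.0032 over 8 libraries and 5.1e-04 over 10 (edgeR), and it was called in all 25 alternatives tried. Of the 3 kinase genes, then, SKM1 and CLA4 were called in the 8 libraries and STE20 was not.

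Set against STE20 in the same library, the CLA4 FPKM was 0.320 to 0.499 of the STE20 FPKM in the 3 low libraries and 0.693 to 1.24 in high. L2_2609 was inside this low range, at 0.416, whereas L1_2709 exceeded all others at 1.97, with the highest CLA4 and the lowest STE20 of the low libraries. The SKM1 to STE20 ratio ran from 0.477 to 1.57 over the 5 low libraries and from 2.06 to 3.24 in high, with no overlap. These ratios are descriptions of levels per length and were not tested.

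**Figure D2:**
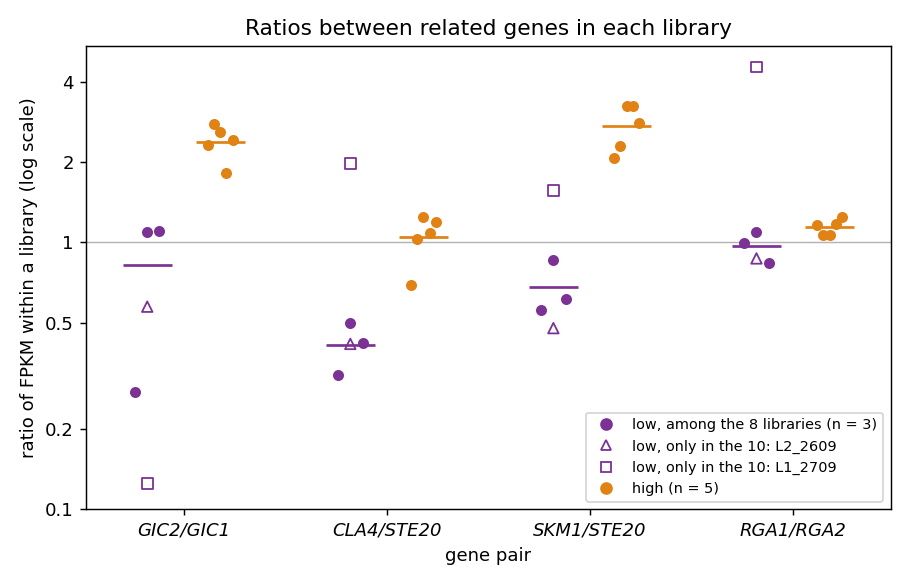
Ratio of FPKM between related genes within each library on a log scale, low left of high, with bars at the means of the 3 low and 5 high libraries, filled points for the 8 libraries and open symbols for L2_2609 and L1_2709. GIC2/GIC1 and SKM1/STE20 do not overlap between groups, and L1_2709 stands above the high libraries in CLA4/STE20 (1.97) and RGA1/RGA2 (4.55).

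CDC42, or YLR229C, on chromosome XII at 604212 to 604787, was present in all libraries and was not called. It had 67.5, 70.7 and 86.4 CPM in L1_2609, L2_2709 and L_2909, 35.4 and 56.5 CPM in L2_2609 and L1_2709, and 68.5, 108, 102, 104 and 79.4 CPM in high. The groups overlapped in the 8 libraries, and the 2 left-out low libraries were the lowest of all. The log2 fold change was -0.30 (95% interval -0.71 to 0.10, adjusted p 0.44, edgeR) over 8 libraries and -0.54 (95% interval -1.03 to -0.054, adjusted p 0.27) over 10. CDC42 overlaps the gene YLR230W on the other strand by 214 bases, and YLR230W reached at most 41.9 CPM, and without a stated strand setting the reads there cannot be assigned.

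The activator CDC24 (YAL041W, chromosome I, 62840 to 65404) was the member with the highest log2 fold change, 0.26 (SE 0.21, 95% interval -0.21 to 0.73, adjusted p 0.60, edgeR), and it was not called. Its high values were tight, between 61.6 and 74.3 CPM (6.999% coefficient of variation). In low they were spread on either side, with 50.2, 91.0 and 103 CPM in L1_2609, L2_2709 and L_2909 and 95.1 and 32.6 CPM in L2_2609 and L1_2709 (41.7% over 5 libraries). BEM1 (YBR200W, chromosome II, 620872 to 622527), the scaffold that binds Cdc24, had 142, 153 and 105 CPM in the 3 low libraries, 158 and 112 CPM in L2_2609 and L1_2709, and 115 to 137 CPM in high. The groups overlapped, with a log2 fold change of 0.07 (95% interval -0.25 to 0.39, adjusted p 0.86, edgeR).

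Of the GTPase-activating proteins, RGA1 (YOR127W, chromosome XV, 561170 to 564193) had 67.3, 96.5 and 79.3 CPM in L1_2609, L2_2709 and L_2909, 60.7 and 125 CPM in L2_2609 and L1_2709 and 86.4 to 99.1 CPM in high. Low thus reached below and above the narrow high range (4.87% coefficient of variation), and the log2 fold change was -0.20 (95% interval -0.51 to 0.11, adjusted p 0.53, edgeR). BEM2 (YER155C, chromosome V, 476345 to 482848), showed the reverse in spread, with 139 to 170 CPM over the 5 low libraries and 130 to 221 CPM in high, where H1_2609 and H_2909 gave the highest values (221 and 197 CPM). Its log2 fold change was -0.14 (95% interval -0.55 to 0.27, adjusted p 0.78).

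Among related GTPase-activating protein genes outside the 10, RGA2 had a log2 fold change of 0.04 (adjusted p 0.93) and BEM3 one of 0.30 (adjusted p 0.42), and neither was called. Over 10 libraries RGA2 was at -0.23 and BEM3 at 0.03. In L1_2709 RGA2 was at 27.5 CPM and BEM3 at 13.8 CPM, under every other library, whereas RGA1 was at its highest there (125 CPM). The RGA1 to RGA2 ratio of FPKM was accordingly 4.55 in L1_2709 and 0.838 to 1.24 in the other 9 libraries.

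SPA2 (YLL021W, chromosome XII, 100947 to 105347), the polarisome scaffold, had 57.1, 56.2 and 77.8 CPM in L1_2609, L2_2709 and L_2909, 62.6 CPM in L2_2609 and 18.6 CPM in L1_2709, against 46.9, 75.3, 66.1, 66.7 and 80.6 CPM in the high libraries. Apart from L1_2709 the low values lay inside the high range. The log2 fold change of -0.08 (95% interval -0.52 to 0.37) was not called (adjusted p 0.89, edgeR).

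**Figure D3:**
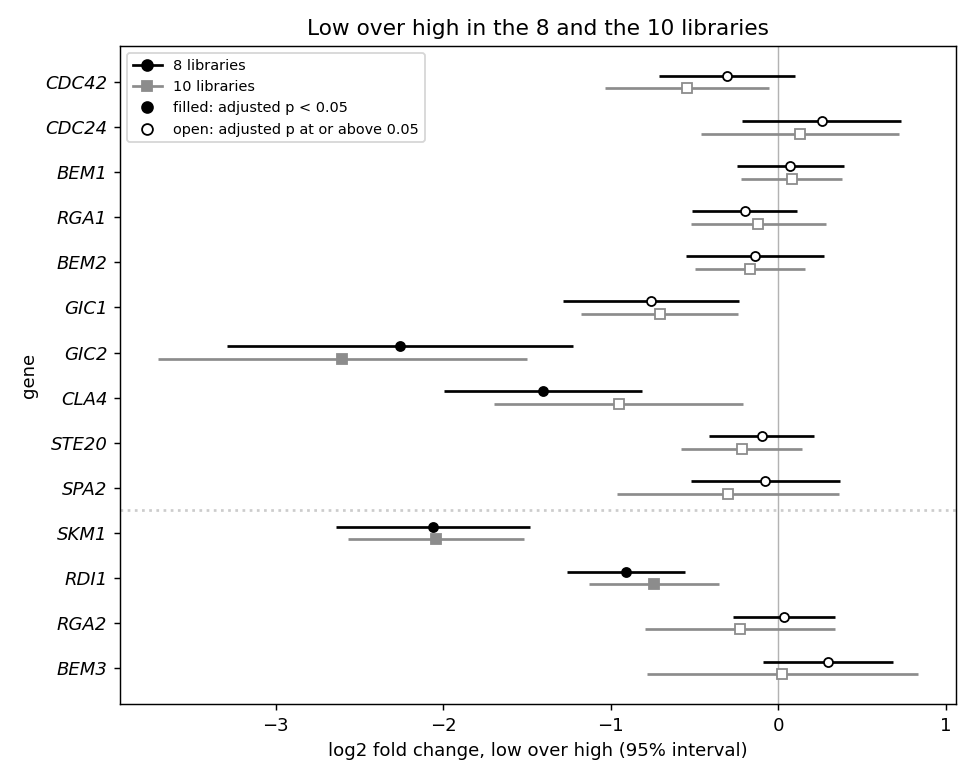
Log2 fold change of low over high with its 95% interval for the 10 members and, under the dotted line, 4 related genes, from the 8 libraries (black circles) and the 10 (grey squares). Filled symbols have an adjusted p under 0.05: GIC2, SKM1 and RDI1 in both fits and CLA4 in the 8 libraries only. The intervals of CDC24, BEM1, RGA1, BEM2, STE20 and SPA2 cover 0 in both fits.

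Per unit of length CDC42 had the highest level of the module in both groups, with a mean of 128 FPKM in the 3 low libraries and 158 FPKM in high. BEM1 followed in these 3 low libraries at 79.7 FPKM, below every CDC42 value there. Then came STE20 at 33.4 FPKM, below every BEM1 value there. From STE20 down, all neighbours in the low order overlapped: CDC24 (31.4), RGA1 (26.5), GIC1 (24.1), BEM2 (23.4), GIC2 (20.2), SPA2 (14.3) and CLA4 (14.1 FPKM). In high, GIC2 stood after CDC42 with 95.9 FPKM and overlapped both CDC42 and BEM1 (75.4 FPKM). BEM1 was above GIC1 (40.6 FPKM) in every library, GIC1, CLA4 (37.1), STE20 (35.6), RGA1 (30.2), CDC24 (26.05) and BEM2 (25.6) overlapped as neighbours, and SPA2 was last at 15.0 FPKM. GIC2 stood at rank 8 of 10 in the 3 low libraries and rank 2 in high, and CLA4 at rank 10 and rank 5. With all 5 low libraries the order at the low end changed to CLA4 at rank 8 (19.3 FPKM), GIC2 at rank 9 and SPA2 last (12.3 FPKM). CDC42 and BEM1 then overlapped, and in L2_2609 CDC42 was below BEM1 (61.6 against 95.6 FPKM).

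With all 5 low libraries, 8 of the 10 members were more variable in low than in high, the exceptions being BEM2 and GIC1, and 70.4% of 5449 genes with a mean of at least 10 CPM were too. The median coefficient of variation of the members was 29.9% in low and 18.9% in high, close to the medians of 24.9% and 15.6% over these genes. With the 3 low libraries the members' median was 18.4%. L1_2709 was the lowest low library for 4 of the members and the highest for 2.

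Other regulators and partners of Cdc42 and the bud-site GTPase Rsr1 form a list of 12, with a median log2 fold change of -0.08. In the 8 libraries 2 of them were called lower and 0 higher, where 4.33% and 0.832% of all genes were. Besides SKM1, the called gene was RDI1, the inhibitor that extracts Cdc42 from membranes. RDI1 had 33.6, 44.9 and 42.2 CPM in L1_2609, L2_2709 and L_2909 and 42.1 and 63.5 CPM in L2_2609 and L1_2709, against 79.8, 69.4, 71.3, 68.8 and 88.2 CPM in high. The groups did not overlap, and the log2 fold change was -0.91 over 8 libraries (adjusted p 0.013, edgeR) and -0.74 over 10 (adjusted p 0.041). With paired replicates in the 8 libraries, a replicate block, the RDI1 call was lost at -0.98 and an adjusted p of 0.091, and with L2_2609 alone left out of the 10 it was lost at -0.71 and an adjusted p of 0.076. Over 10 libraries it was also lost with the replicate block (adjusted p 0.061, edgeR) and with a block on shared name endings (adjusted p 0.053). The RDI1 promoter window held the SBF form CGCGAAA on the other strand, 142 to 136 bases before the start codon. BUD5, the activator of Rsr1, had the highest value of the list, 0.63, and was not called with edgeR (adjusted p 0.11) but was called higher in low with DESeq2.

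Further along the pathway, 1 of 7 polarisome and formin genes was called, and that was BNR1, the formin of the bud neck, at -1.21 (adjusted p 0.022, edgeR). It was at 0 counts in L1_2709 and was not called over 10 libraries (adjusted p 0.62), and it was called in only 15 of the 25 alternatives. BNI1, the formin that Spa2 helps to localise, had 276 to 313 CPM over the 5 low libraries and 230 to 298 CPM in high and was not called. Of 17 genes of actin cables and exocytosis, 1 was called lower, the minor tropomyosin TPM2, at -0.80 (adjusted p 0.023, edgeR). TPM2 was called in 19 of the 25 alternatives. A single call in such lists stands beside the 4.33% of all genes tested that were called lower. Of 19 actin patch genes 0 were called with edgeR, DESeq2 or limma-voom, and 1 was higher and 3 were lower at an unadjusted p under 0.05. The medians of these 3 lists lay between -0.08 and 0.04, around the -0.02 of all genes.

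Septins and neck kinases stood lower, with 4 of 9 called lower, 0 higher and a median of -0.91. Of all genes tested in the 8 libraries, 4.33% were called lower and 0.832% higher, with a median of -0.02. The products of the septin genes CDC3, CDC10, CDC11 and CDC12 form the ring that Cdc42 and its effectors place at the bud neck. These genes had log2 fold changes of -1.76, -1.02, -0.90 and -0.85. CDC12 was not called over 10 libraries (adjusted p 0.10, edgeR) and was called in only 11 of the 25 alternatives. CDC11 was called in 24 of them, and CDC3 and CDC10 in all 25. Another septin gene, SHS1, was called over 10 libraries (-1.03, adjusted p 0.036) and not over 8 (-0.95, adjusted p 0.11). Of 10 genes of G1 cyclins and Start, 3 were called lower, beside the same 4.33% of all genes, and the median was -0.74. These were the G1 cyclin CLN2 (-2.58, adjusted p 0.0044), the Pho85 cyclin PCL2 (-1.48, adjusted p 0.0093) and the cyclin-dependent kinase CDC28 (-1.91, adjusted p 0.019), and over 10 libraries CLN2, with 0 counts in L1_2709, was not called (adjusted p 0.095).

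**Figure D4:**
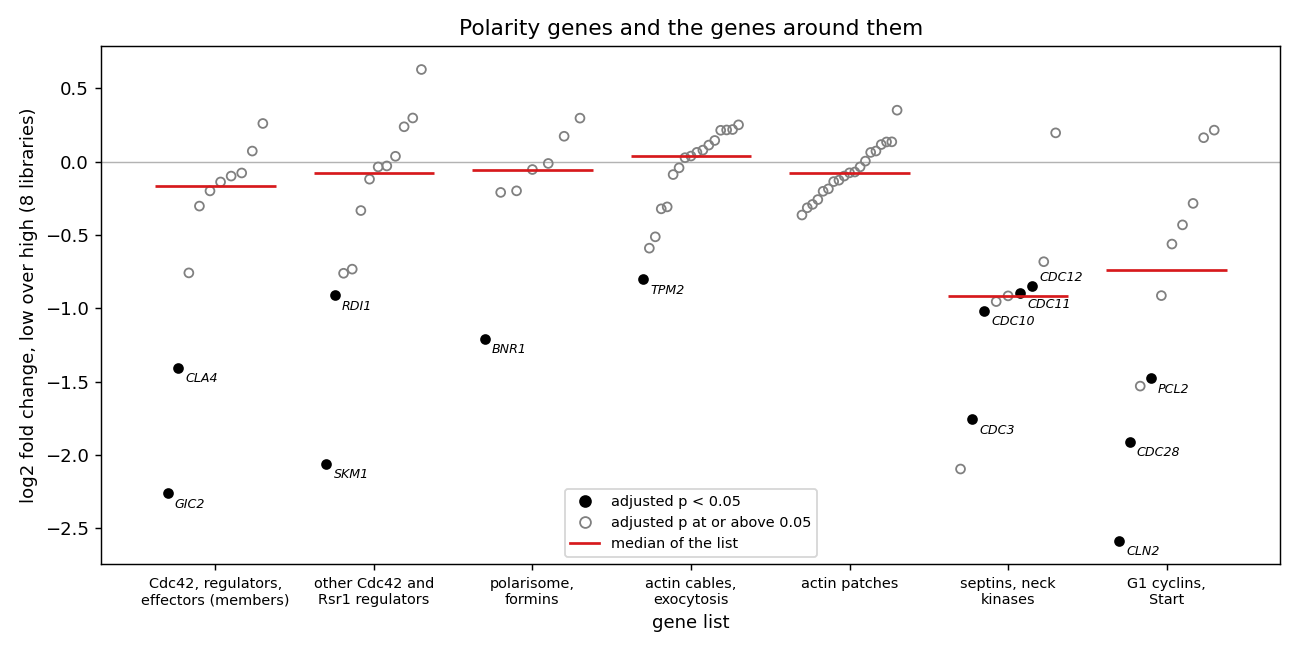
Log2 fold change of low over high in the 8 libraries for the 10 members and for 6 lists of genes around them, each point a gene, filled where the adjusted p was under 0.05, with a line at the median of each list. The medians are -0.17 for the members, -0.91 for septins and neck kinases and -0.74 for G1 cyclins and Start, and no gene of these lists was called higher in low with edgeR.

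Cell cycle markers differed between the groups beside GIC2 and CLA4. Of all genes tested with edgeR, 4.33% were called lower and 0.832% higher in the 8 libraries. Over 10 libraries these shares were 2.84% and 0.706%. All 10 genes of G2 and M phase were called lower in low with edgeR, over 8 and over 10 libraries, CHS2, CDC5 and BUD4 with the smallest adjusted p, and their summed level was 167 to 281 CPM in the 3 low libraries (up to 342 CPM in all 5) and 1229 to 1758 CPM in high. CLB2 was at 0 in L2_2709 and L2_2609, and the other 9 were detected in every library. Of 10 late G1 and S phase genes 3 were called lower with edgeR in the 8 libraries (SMC3, POL30 and MCD1), 1 with limma-voom (POL30) and 4 with DESeq2. Over 10 libraries 1 was called with edgeR, and SMC3 (-1.41, adjusted p 0.35) and MCD1 (-2.39, adjusted p 0.40) were not. POL30 was at 0 in all 5 low libraries and at only 1.23 to 3.46 CPM in high. MCD1 was at 0 in L1_2609 and L2_2709 and at 0.670 CPM in L_2909, against 5.63 to 13.2 CPM in high. SMC3 had 1.40, 1.91 and 1.55 CPM in L1_2609, L2_2709 and L_2909 and 5.86 to 17.0 CPM in high. Of the 25 alternatives, POL30 was called in 22, SMC3 in 18 and MCD1 in 13. Of the 10 genes, 6 were at 0 in at least 1 low library and 0 in any high one. The 5th percentile of counts above 0 was 48 to 105 in the low libraries and 9 to 12 in high. The bearing of this on the POL30, MCD1 and SMC3 values was not tested. The summed level of the list was 92.1 to 115 CPM in the 5 low libraries and 120 to 226 CPM in high. RFA1 alone had 53.7 to 82.4 CPM in low and 67.2 to 113 in high. Of 8 histone genes 5 were called lower, HTA2, HHF2 and HHT2 with the smallest adjusted p, with sums of 2925 to 3396 CPM over the 5 low libraries and 3663 to 4968 CPM in high. Over 10 libraries 4 histone genes were called, and HTA2 was not (-1.48, adjusted p 0.053, edgeR). Daughter-specific genes of early G1 had 3 called higher (CTS1, DSE2 and DSE1) and 1 lower, EGT2, of 10, with sums of 1848 to 3299 CPM in low and 950 to 1528 CPM in high. CTS1 alone gave 997 to 1669 CPM of the low sums and 235 to 338 CPM of the high ones. The rest of the list was not called, and of all 10 genes 7 were above 0 and 3 below in the 8 libraries. The part of these differences in the values of GIC2 and CLA4 was not tested.

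The genes whose centred profile over the 10 libraries was most like that of GIC2, by root mean square difference in log2(CPM + 1) over 5448 genes compared, were FDO1 (0.19), STU2 (0.49), which encodes a microtubule polymerase, and VAC17 (0.50), the vacuole receptor for the myosin Myo2. FDO1 had 1.05, 4.81 and 6.39 CPM in L1_2609, L2_2709 and L_2909 and 15.6 to 31.8 CPM in high, so it shared with GIC2 the low value in L1_2609 and the lowest high value in H1_2609. For CLA4 they were the kinetochore gene CTF3 (0.33), the septin gene CDC12 (0.34) and TOS1 (0.37), which encodes a cell wall protein. For CDC42 they were LPX1 (0.21), MID1 (0.21) and YCS4 (0.22), none of which was called. These distances describe 10 libraries that share the low and high groups, and carry no test.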

How the data were processed

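RNA was sequenced from sorted low and high cells, 5 libraries each, which the labels call biological replicates. The authors filtered reads, mapped them with HISAT2 to an Ensembl genome, and deposited raw counts per gene and FPKM per gene. The counting tool and strand setting are not given in the sources used here. Gene coordinates of the tables equal those of build R64 for 6036 of 6048 shared identifiers, including the 10 members. FDO1 takes its symbol from the R64 annotation.

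Low was compared with high in edgeR 4.0.16 (R 4.3.3) without a covariate: filterByExpr, TMM, quasi-likelihood test, Benjamini-Hochberg adjustment, threshold 0.05, positive where low is higher. The members and lists were chosen with earlier results of these data known. Of each list, called genes were named, up to 3 with the smallest adjusted p. BUD5, BNI1, EGT2, SHS1, CLB2, RFA1 and the overlapping genes were named after their values were seen. So were the MATa and alpha-specific genes, STE2 and MF(ALPHA)1 among them. Likeness used genes with a mean of at least 10 CPM and the 3 nearest genes. Promoters were searched with Python 3.11.15. Some lists and motifs are not reported here. Fits were tested on simulated data. Alternatives were DESeq2 1.42.0, limma 3.58.1 (voom, log2(FPKM + 1) and log2(FPKM + 0.1)), other scalings and filters, blocks, thinned counts and left-out libraries. Reads carry no molecular identifiers, so counts are not independent molecules.

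High and low libraries share replicate codes in their titles. Over 4372 genes with at least 30 CPM, deviations of same-coded libraries correlated at 0.27, 0.10 and 0.30 in the 3 pairs of the 8 libraries, all over the limit of 0.1, the 0.10 of L2_2709 only barely, and these were taken as pairs, although L2_2709 correlated best with H1_2609. The unpaired H2_2609 and H1_2709 do not inform the paired fold changes. Over 10 libraries, 1 of the 5 pairs was below the limit (0.02).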

Additional observations from a re-analysis of the deposited data

Results flagged for a closer look

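Among 86 groups of 5 libraries examined (low and high for the members and the other named genes), 1 had a library set apart from the other 4. RGA2, a GTPase-activating protein gene, had 86.8 CPM in the high library H1_2709, against 79.8 to 81.1 CPM in the other 4 high libraries. Chance alone sets a library apart in about 5% of such groups. No member was flagged in either group.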

How the results depend on the processing

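Over 25 alternatives to the comparison in the 8 libraries, 8 of 10 members were below 0 in each, GIC2 was called in 22, CLA4 in 20, GIC1 in 2 and the other 7 members in 0. GIC2 ranged from -2.91 to -1.83 and CLA4 from -1.71 to -0.85. Of all genes, 335 were called, 602 with DESeq2 (with 3 members), 97 with paired replicates (a replicate block) in the 8 libraries and 113 to 437 with 1 library left out. Members called numbered 2, but 1 over all 10 libraries, 1 with a block on the shared name endings over 10, 1 with L2_2609 alone left out of the 10, and 0 to 3 with 1 of the 8 left out. The replicate block left GIC2 at -2.30 (adjusted p 0.013) and CLA4 at -1.29 (adjusted p 0.026) in the 8 libraries and gave 2 called members over 10, where CLA4 was called at -1.12 (adjusted p 0.028). It changed no other member's call. Leaving L2_2609 or L1_2709 out of the 10 was chosen after seeing the data.

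With 1 of the 8 libraries left out, BEM1 ranged from -0.0373 to 0.216, SPA2 from -0.246 to 0.00383 and RGA2 from -0.0599 to 0.165, with the turned values BEM1 -0.0373, SPA2 0.00383 and RGA2 -0.00818 without L2_2709 and RGA2 -0.0599 without L_2909. RGA2 was -0.000605 with upper quartile scaling and -0.23 over 10 libraries, -0.33 with the replicate block and -0.25 with the block on endings over 10, -0.23 without L2_2609 and -0.0250 without L1_2709. BEM3 was -0.18 with the replicate block over 10 and -0.0358 without L2_2609. None of these was called, and the cause was not tested. Depth limits GIC2 most in L1_2709, where it had 57 counts.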
